A study of Homo sapiens with 12 samples.

Results

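HCT116 cells kept for 48 h in medium without cystine were compared with HCT116 cells kept for 48 h in full medium, across all named genes of the deposited table. HCT116 is an established human colorectal carcinoma cell line, and every sample carries the genotype label WT. The comparison takes 6 of the 12 samples of the series, 3 deprived and 3 control, and 60671 named genes of 60987 rows, of which 16994 had enough counts to be tested. The other 6 samples are the same 2 conditions at 24 h, and they serve here to show whether a change was already present at that time. Control cells stayed in full DMEM with serum (10%) and antibiotics. Deprived cells were washed and received warm DMEM with the same serum share, antibiotics and 0 mM cystine, and their treatment label reads only amino acid deprivation. No wash or change of medium is given for the control cells, so the wash, the new medium and the lack of cystine cannot be told apart. The labels do not say whether the 3 replicates of a group were grown apart; the p-values therefore reflect a replicate spread that could be technical only.

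Cystine is the oxidised form in which cultured cells take up cysteine, and the exchanger of SLC7A11 and SLC3A2 imports it in return for glutamate. Cysteine goes into proteins, glutathione, coenzyme A and iron-sulfur clusters. When an amino acid runs short, uncharged tRNA activates the kinase GCN2, phosphorylation of eIF2alpha slows translation, and the transcription factor ATF4 is made; when glutathione runs short, GPX4 can no longer reduce lipid peroxides, and cells may die by ferroptosis. Many cancer cell lines depend on imported cystine in culture.

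The 6 libraries at 48 h held 22024391 to 23395234 estimated counts over all rows, those without a gene name included. Levels are given as CPM (counts scaled to equal totals), and a difference as a log2 fold change with its standard error (SE), deprived minus control. A gene is called higher or lower where its adjusted p is under 0.05. The first principal component of the 6 libraries held 79.9% of the variance and separated the treatments. The second held 6.07%, with replicate 1 at 29.7 in deprived and at 19.4 in control cells. The other deprived libraries were at -10.9 and -18.0, and the other control libraries at -16.5 and -3.68. Mitochondrial transcripts took 8.64% to 8.65% of counts in control cells and 7.56% to 8.14% in deprived cells. Of 10 epithelial markers, all were tested, and their summed level was 4706 to 5212 CPM in control and 5383 to 6001 CPM in deprived cells; VIL1, a marker of differentiated gut epithelium, was between 0.557 and 2.00 CPM in each library. Leukocyte markers PTPRC, CD3D, CD3E, MS4A1 and NKG7 were at 0 in all 6 libraries, and the summed level of the 10 leukocyte markers, nearly all of it from CD68, was 11.1 to 11.4 CPM in control and 23.1 to 27.4 CPM in deprived cells. The fibroblast markers DCN and LUM had no counts in deprived cells, and the summed level of that list went from 53 to 57 CPM down to 25 to 27 CPM, mostly through COL1A1. The endothelial list, mostly EGFL7, summed to 54 to 65 CPM in control and 24 to 27 CPM in deprived cells. The part of other cell types in the results was not tested beyond these values. In bulk RNA, fewer cells of a type and less RNA per cell cannot be told apart.

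At 48 h, 11615 of the 16994 tested genes (68.3%) were called, 5685 higher (33.5%) and 5930 lower (34.9%) in deprived cells. Without deprived replicate 1 the count was 11371. Large changes were more often falls: 339 genes (1.99%) were called and at least 4-fold higher, and 882 (5.19%) were called and at least 4-fold lower. At 24 h, 9451 genes (55.6%) were called, 4886 higher (28.8%) and 4565 lower (26.9%). The deprivation effect itself differed between the times for 6048 genes (35.6%), being more positive at 48 h for 2787 (16.4%) and more negative for 3261 (19.2%). The median log2 fold change of all tested genes was -0.02 at 48 h and -0.01 at 24 h, with quartiles at -0.62 and 0.47 at 48 h. Since about 1 gene in 3 was called in each direction, a list of genes is described below by its counts and its median beside these values.

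**Figure D1:**
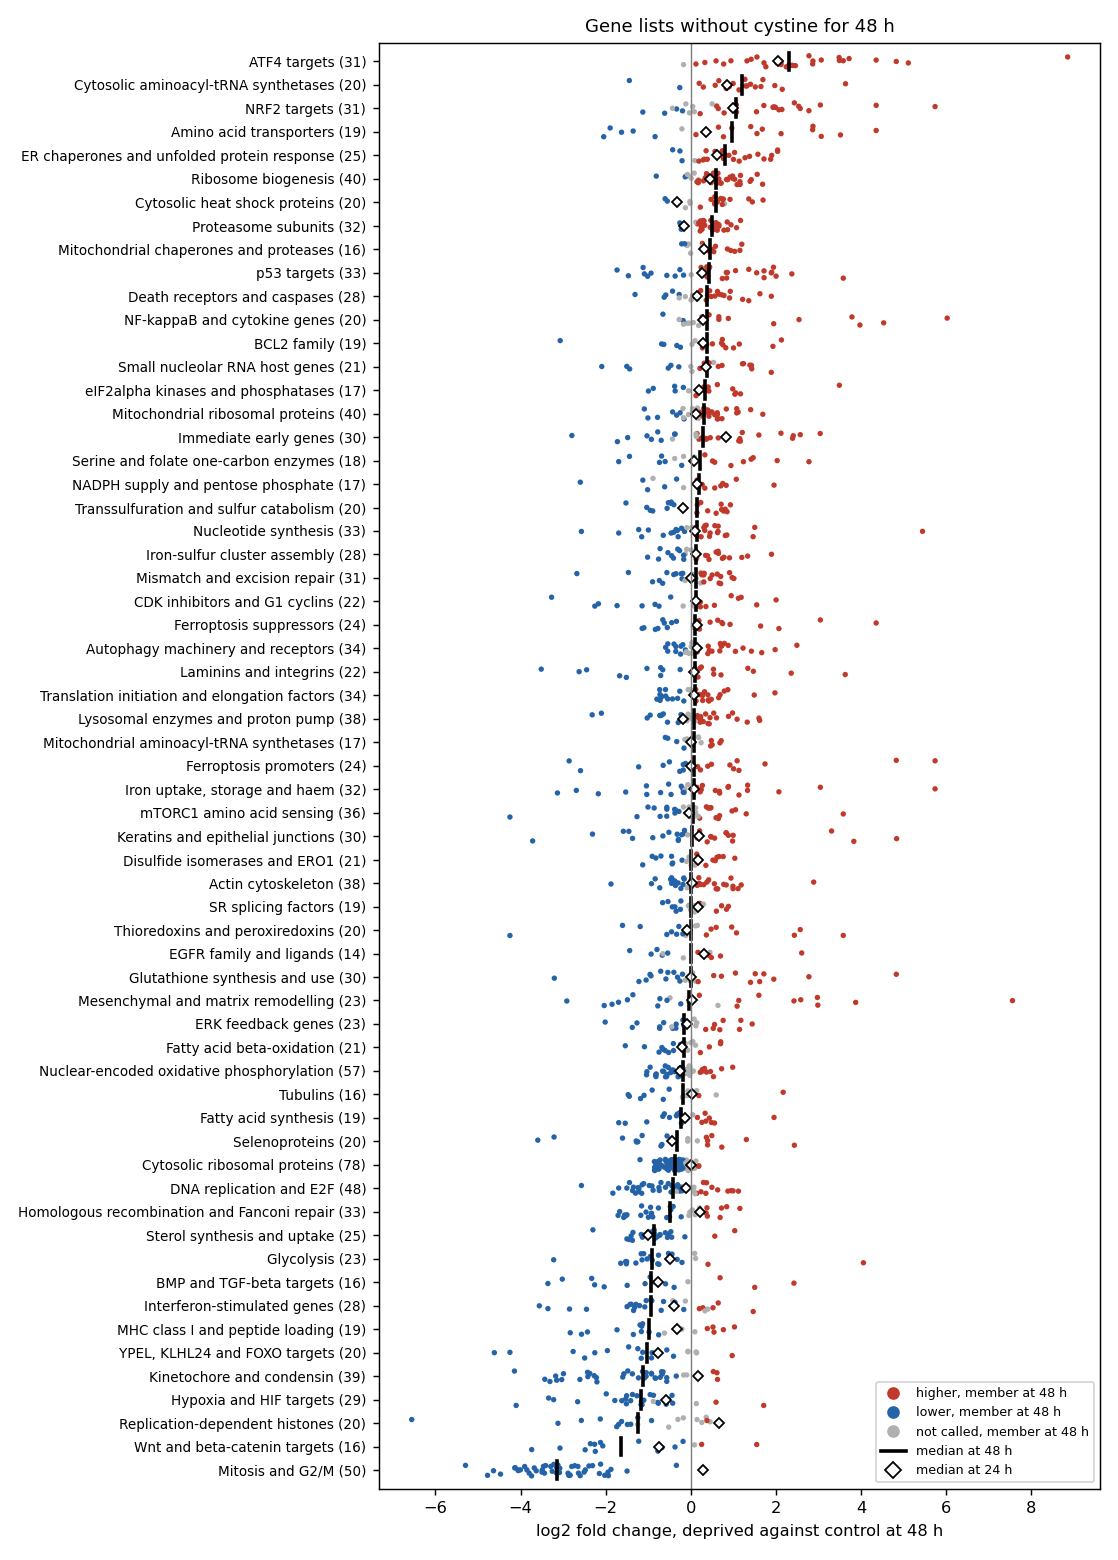
Log2 fold change of each tested member of the gene lists at 48 h (x axis), one row per list with its number of tested members in brackets, ordered by median. Points are single genes coloured by call, black bars mark the median at 48 h and open diamonds the median at 24 h; ATF4 targets lie highest with a median of 2.31, and genes of mitosis lowest with a median of -3.14, against 0.28 at 24 h.

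Among genes averaging 5 CPM or more, the 12 largest rises were those of NUPR1, SPX, KLHDC7B, LCN2, HMOX1, UPP1, KRT16, CHAC1, ANGPT4, IL20RB, SLC7A11 and NRP1. LCN2, an iron-siderophore binding protein of epithelia (chr9:128149071-128153455, plus strand), was at 0.767, 1.51 and 0.964 CPM in the 3 control samples and at 69.7, 73.1 and 67.5 CPM in the 3 deprived samples. It was 6.02 ± 0.16 higher on the log2 scale (adjusted p = 8.58e-17), and the groups were far apart. NRP1, a coreceptor for VEGF and semaphorins, went from 3.54, 3.84 and 3.3 CPM to 63.7, 59.8 and 66.6 CPM. Its rise was 4.15 ± 0.09 at 48 h and 4.11 at 24 h, and the difference between the times did not pass the test (0.04 ± 0.16, adjusted p = 0.887). ANGPT4, an angiopoietin ligand of the receptor TIE2, was at 1.62, 1.55 and 1.42 CPM against 38.5, 38.8 and 33.9 CPM. SPX, which encodes a secreted peptide, had a mean of 0.116 CPM in control and 18.5 ± 2.13 CPM (SD, n = 3) in deprived cells, and KLHDC7B rose from 0.135 to 9.95 CPM. The rule that picked the 12 took only genes whose groups do not overlap. All 3 deprived samples lay above all 3 control samples for 5805 tested genes (34.2%).

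The 12 largest falls by the same rule were those of METTL7A, PIF1, KIF20A, SPDYA, TMSB15A, CDC25C, CENPF, YPEL1, DLGAP5, SESN3, FBLN1 and NMU. METTL7A, a methyltransferase that can act on thiols, was at 11.7, 11.4 and 11.3 CPM in control and at 0.088, 0.139 and 0.273 CPM in deprived cells, a change of -6.06 ± 0.22 (adjusted p = 1.02e-14). At 24 h its change was -3.0. PIF1, a DNA helicase, did not pass the test at 24 h (0.15, adjusted p = 0.237) and went from 25.9, 25.5 and 26.1 CPM to 0.704, 0.139 and 0.41 CPM at 48 h. SPDYA, an activator of cyclin-dependent kinases, was at 20.5, 17 and 17.7 CPM against 0.704, 0.371 and 0.638 CPM. TMSB15A, an actin-binding thymosin, had a log2 fold change of -4.94, FBLN1, of the secreted matrix, one of -4.25, and NMU, which encodes the peptide neuromedin U, one of -4.24. The rule again took only genes whose groups do not overlap. All 3 deprived samples lay below all 3 control samples for 6084 tested genes (35.8%).

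Genes of the amino acid response rose with few exceptions. Of 31 tested ATF4 targets, 30 were higher and none lower, with a median of 2.31 against -0.02 over all genes, and the count at 24 h was 28 higher and 0 lower. STC2, a secreted stanniocalcin, was at 77.1, 94.3 and 78.2 CPM in control and 1037, 1103 and 1141 CPM in deprived cells (3.72 ± 0.07). TRIB3, a pseudokinase that restrains ATF4, went from 27.5, 33.1 and 31.2 CPM to 315, 351 and 361 CPM. PPP1R15A, the subunit that directs dephosphorylation of eIF2alpha, went from 48.4, 58.2 and 52.9 CPM to 532, 618 and 639 CPM. The fitted folds of these 3 genes, which were picked for their small adjusted p, were 13.1, 11.2 and 11.2. ATF4 itself rose by 0.68 ± 0.06, from 300.5, 370.1 and 349.8 CPM to 509.9, 566 and 563 CPM. DDIT3, the stress transcription factor CHOP, was 2.24 higher at 48 h after 3.09 at 24 h, a difference of -0.85 ± 0.11 (adjusted p = 1.05e-05).

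Promoters of 3 genes of this response hold the letters TGATGNAA, which complexes of ATF4 with C/EBP proteins can bind. The sequences are shown because these genes rose at both times and differ in where the letters lie; the 250 bases before the start are from RefSeq (GRCh38.p14), read in the direction of the gene, with matches on either strand in capitals. CHAC1 lies at chr15:40953221-40953470, plus strand, ASNS at chr7:97872409-97872658, minus strand and AARS1 at chr16:70289507-70289756, minus strand.
CHAC1: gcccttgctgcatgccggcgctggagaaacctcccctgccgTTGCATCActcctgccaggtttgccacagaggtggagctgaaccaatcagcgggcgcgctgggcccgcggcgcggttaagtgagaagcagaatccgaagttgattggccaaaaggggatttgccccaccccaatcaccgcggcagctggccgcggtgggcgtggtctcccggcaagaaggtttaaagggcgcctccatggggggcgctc
ASNS: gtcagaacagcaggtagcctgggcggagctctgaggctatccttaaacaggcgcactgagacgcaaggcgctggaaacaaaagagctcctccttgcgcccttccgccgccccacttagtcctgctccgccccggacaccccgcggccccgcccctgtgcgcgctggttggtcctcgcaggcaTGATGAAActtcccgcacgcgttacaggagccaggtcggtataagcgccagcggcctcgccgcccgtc
AARS1: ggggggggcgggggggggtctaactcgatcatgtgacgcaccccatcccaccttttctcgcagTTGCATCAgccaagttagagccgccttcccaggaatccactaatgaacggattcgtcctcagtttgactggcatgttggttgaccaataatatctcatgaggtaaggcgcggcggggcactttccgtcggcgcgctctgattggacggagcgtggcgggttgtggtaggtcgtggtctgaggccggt
Counted from the transcription start, the matches run from -209 to -202 in CHAC1, from -68 to -61 in ASNS and from -187 to -180 in AARS1. Over windows of 250 bases before to 50 after the start, the letters were found on either strand in 6 of 26 ATF4 target promoters (23.1%) and 6 of 16 promoters of cytosolic aminoacyl-tRNA synthetases (37.5%), against 1003 of all 27305 promoters (3.67%). None of 33 promoters of ribosome biogenesis genes held them. The first list was meant to take in known ATF4 targets, so its share is no independent result. The promoters used for comparison include those of genes that were not tested here. A match is a description of the sequence, not a measured site.

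CHAC1, which breaks down glutathione, was at 4.26, 7.18 and 5.09 CPM in control and at 144, 162 and 162 CPM in deprived cells. ASNS, asparagine synthetase, was at 132, 155 and 169.6 CPM against 797, 868 and 845 CPM (2.46 ± 0.09). AARS1, which charges the tRNA of alanine, was at 241, 274 and 274 CPM against 794, 873 and 886 CPM (1.69 ± 0.06). CHAC1 rose more at 48 h than at 24 h (difference 1.74, adjusted p = 1.08e-07), whereas for AARS1 the difference was -0.16 (adjusted p = 0.147).

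Enzymes that charge tRNAs in the cytosol mostly rose. Of 20 cytosolic synthetase genes 18 were higher and 2 lower, with a median of 1.2; of 17 mitochondrial ones 5 were higher and 4 lower, with a median of 0.07, near that of all genes. WARS1, for tryptophan, was at 37.5, 38.8 and 43.5 CPM in control and 461, 499 and 525 CPM in deprived cells, and GARS1, for glycine, rose by 2.15 ± 0.06. Of 19 tested amino acid transporter genes, 13 were higher and 5 lower (median 0.96). SLC7A11 (chr4:138164097-138242349, minus strand) was at 37.7, 33 and 41.3 CPM in control and at 900.3, 705 and 685 CPM in deprived cells, with deprived replicate 1 highest. Its partner SLC3A2 was at 109.5, 142 and 132 CPM against 973, 1107 and 1127 CPM, SLC7A5, a carrier of large neutral amino acids, at 298, 335 and 319.9 CPM against 2148, 2325 and 2448 CPM. SLC7A1, a carrier of cationic amino acids, rose by 2.12 ± 0.06. Serine and folate one-carbon enzymes split, with 9 of 18 higher and 6 lower. PSAT1 and PSPH of serine synthesis rose by 2.77 and 1.42, and mitochondrial MTHFD2 rose by 2.03, while TYMS, thymidylate synthase, was at 98.8, 109 and 114 CPM in control and 34.7, 33.6 and 30.8 CPM in deprived cells. TYMS did not pass the test at 24 h (-0.03, adjusted p = 0.742).

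**Figure D2:**
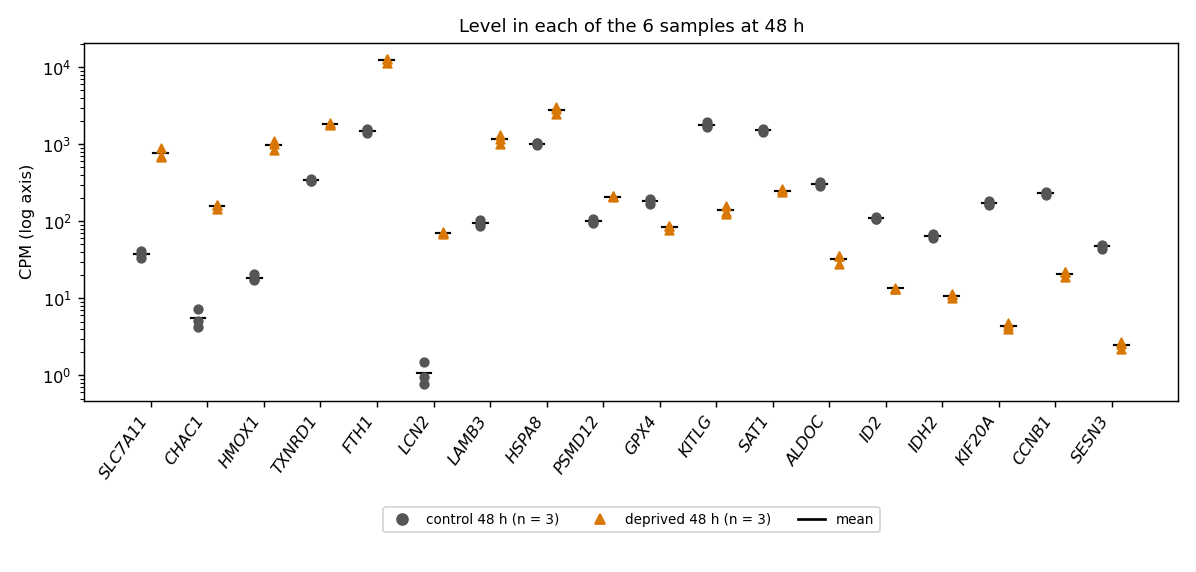
Level of 18 genes in each of the 6 samples at 48 h in CPM on a log axis, with the mean of each group as a bar (n = 3). In each of these picked genes the 3 deprived samples lie all above or all below the 3 control samples. Of all tested genes, 34.2% lay all above and 35.8% all below. SLC7A11, HMOX1 and LCN2 are among the genes that rose most, and KIF20A and SESN3 among those that fell most.

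Genes of the glutathione list did not lean either way, while the synthesis genes among them rose. In a wider set, glutathione metabolism of the pathway database KEGG, 14 of 41 were higher and 22 lower (median -0.26). Of the 30 tested genes of the list, which covers glutathione synthesis and use, 11 were higher and 12 lower. Their median was -0.01, which is that of a typical gene. GCLM, the modifier subunit of glutamate-cysteine ligase, was at 16.4, 19.97 and 18.7 CPM in control and 134, 124 and 118 CPM in deprived cells. GCLC, its catalytic subunit, was at 85.6, 86.7 and 84.3 CPM against 187, 182 and 161 CPM, and GSS, glutathione synthetase, at 64.3, 68.6 and 61.4 CPM against 181, 188 and 185 CPM. The log2 fold changes were 2.77 ± 0.07, 1.05 ± 0.06 and 1.51 ± 0.06. GSR, which reduces oxidised glutathione, stood at 173 ± 10.1 CPM in control and 178 ± 5.73 CPM in deprived cells (adjusted p = 0.522). ABCC3, an exporter of glutathione conjugates, rose by 1.72 ± 0.07. Of the 10 glutathione transferases tested in this list 9 were lower and 1, MGST1, was higher (1.62); their median was -0.65. In the methionine and transsulfuration list, 11 of 20 were higher and 9 lower: CTH, which makes cysteine from cystathionine, rose by 0.77 ± 0.08 after 0.08 at 24 h (adjusted p = 0.4), whereas MTAP, of methionine salvage, was at 414, 393 and 393 CPM in control and at 142, 136 and 139.7 CPM in deprived cells, and AHCY, which splits S-adenosylhomocysteine, changed by -1.04.

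The GCLM promoter is shown as an example of an antioxidant response element, written TGACNNNGC, the site of NRF2 with small MAF proteins; the match, in capitals, runs from -34 to -26 relative to the start, in the window chr1:93909431-93909680, minus strand (RefSeq, GRCh38.p14).
GCLM: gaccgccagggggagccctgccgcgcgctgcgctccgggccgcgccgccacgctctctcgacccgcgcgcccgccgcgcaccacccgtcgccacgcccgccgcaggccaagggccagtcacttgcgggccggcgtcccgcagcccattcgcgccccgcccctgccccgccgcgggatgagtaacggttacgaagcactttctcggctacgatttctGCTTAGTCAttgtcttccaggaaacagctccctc
These letters are common: 3702 of all 27305 promoters (13.6%) held them on either strand.

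Targets of NRF2, the transcription factor that KEAP1 keeps low in the absence of electrophiles, were higher in 21 of 31 cases and lower in 4 (median 1.07). Their summed level was 5599 to 6092 CPM in control and 21960 to 24040 CPM in deprived cells. HMOX1, haem oxygenase, was at 17.2, 20.6 and 18 CPM in control and at 855, 1012 and 1110.5 CPM in deprived cells. TXNRD1, thioredoxin reductase of the cytosol, was at 334, 352 and 332 CPM against 1761, 1892 and 1839.7 CPM. SRXN1, which repairs peroxiredoxins, was at 79.5, 93 and 82.4 CPM against 505, 518 and 490.3 CPM. HMOX1 rose further between the times (difference 1.7 ± 0.12), TXNRD1 and SRXN1 by less (0.62 and 0.27). Regulators of the pathway were higher in 8 of 12 cases and lower in 3: SQSTM1, the autophagy receptor that binds KEAP1, rose by 2.49, NFE2L1 by 1.11, KEAP1 by 1.0 and NFE2L2, which encodes NRF2, by 0.92. Thioredoxins and peroxiredoxins were split, 8 of 20 higher and 8 lower. Among them the sestrins went apart: SESN2 was at 17.9, 20.7 and 16.2 CPM in control and 207, 218 and 231 CPM in deprived cells, while SESN3 was at 49.6, 44 and 48.1 CPM against 2.55, 2.69 and 2.19 CPM.

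Ferritin genes rose strongly, and the gain of FTH1 was the largest of any gene in CPM. FTH1, the ferritin heavy chain (chr11:61959718-61967660, minus strand), was at 1387, 1535 and 1569.7 CPM in control and at 11461, 12806 and 12746 CPM in deprived cells, a rise of 3.04 ± 0.06 (adjusted p = 3.06e-18). FTL, the light chain, was at 669, 769.7 and 753 CPM against 2836, 3191 and 3164 CPM. TFRC, the transferrin receptor, was at 249.9, 239.5 and 230.2 CPM against 514, 529 and 532 CPM. FTH1 and FTL had risen at 24 h by 2.09 and 1.51, and TFRC by only 0.29, so that its effect differed between the times by 0.84 ± 0.06 (adjusted p = 6.4e-09). CPOX, an enzyme of haem synthesis, was at 731, 716 and 709 CPM in control and at 121, 111 and 102 CPM in deprived cells. Over the whole iron and haem list 15 of 32 were higher and 13 lower (median 0.06). Genes of iron-sulfur cluster assembly were 13 higher and 10 lower of 28, and NDOR1 and FDX2 rose (1.33 and 1.89) while FDXR, ferredoxin reductase, fell (-1.02).

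Ferroptosis genes showed no common direction. Of 24 suppressors 11 were higher and 9 lower, and of 24 genes that promote it 11 were higher and 9 lower. GPX4, the peroxidase that reduces lipid peroxides, was at 167, 195 and 192 CPM in control and at 77.6, 86 and 86.9 CPM in deprived cells. AIFM2, the coenzyme Q reductase FSP1, moved the other way, from 26.8, 31.7 and 28.9 CPM to 89, 89.3 and 93.8 CPM. ACSL4, which places polyunsaturated fatty acids in phospholipids, stood at 100.2, 99.7 and 101 CPM against 92.1, 87.2 and 86.1 CPM (-0.18 ± 0.05, adjusted p = 0.00353). SAT1, the polyamine acetyltransferase (chrX:23783173-23786226, plus strand), was at 1437, 1556 and 1547 CPM in control and 259, 254 and 239 CPM in deprived cells; its change was -2.59 at 48 h after -0.57 at 24 h. Selenoproteins were 7 higher and 10 lower of 20 tested. SELENOP, the secreted selenium carrier, was at 28.2, 27.9 and 26.4 CPM against 3.35, 3.2 and 2.32 CPM, SELENON fell (-1.24), and SEPHS2, which makes the selenium donor, rose by 1.3. Among genes that supply NADPH (9 higher, 5 lower of 17), ME1, malic enzyme of the cytosol, went from 47.7, 48.7 and 53.7 CPM to 189, 194 and 198 CPM. The isocitrate dehydrogenases differed in direction: IDH2 of mitochondria was at 59.9, 69.4 and 66.3 CPM in control and at 10.9, 11.4 and 9.97 CPM in deprived cells, while IDH1 of the cytosol was at 117, 119.8 and 121 CPM against 215, 207 and 213 CPM. Transketolase, TKT, fell (-1.13). The metallothionein genes MT1X, MT1E and MT2A, which encode cysteine-rich metal-binding proteins, were higher by 1.62, 1.12 and 1.24; reads of near-identical copies make single members uncertain.

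Protein folding genes of the endoplasmic reticulum rose at both times. Of 25 tested, 21 were higher and 3 lower at 48 h (median 0.79) and 20 higher and 1 lower at 24 h (median 0.62). HSPA5, the chaperone BiP, is shown with its promoter because it holds the full ER stress element, in capitals, from -66 to -48 relative to the start; the element was found in 6 of 23 promoters of this list (26.1%) and in 22 of all 27305 (0.0806%). Its first letters are those of the NF-Y site CCAAT, so the 2 searches overlap. The list was meant to take in genes of the ER stress response, so the share is no independent result. The window lies at chr9:125241344-125241593, minus strand (RefSeq, GRCh38.p14).
HSPA5: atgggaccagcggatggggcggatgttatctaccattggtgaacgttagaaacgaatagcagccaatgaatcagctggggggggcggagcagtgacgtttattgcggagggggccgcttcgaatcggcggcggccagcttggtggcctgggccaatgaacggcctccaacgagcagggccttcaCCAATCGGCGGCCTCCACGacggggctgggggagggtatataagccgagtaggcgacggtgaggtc
HSPA5 was at 690.3, 774 and 731 CPM in control and at 2915, 3119 and 2979 CPM in deprived cells, and its difference between the times was -0.18 (adjusted p = 0.0454). HYOU1, a large chaperone of the same compartment, was at 199, 214 and 199 CPM against 716, 752 and 775 CPM, and HERPUD1, of ER-associated degradation, at 37.9, 47.9 and 44 CPM against 174, 172 and 187 CPM. The transcription factor gene XBP1 rose by 1.72 ± 0.06. Disulfide isomerases and their oxidases, which form the bonds between cysteines, were in contrast 9 higher and 8 lower of 21 (median 0.01): PDIA5 and ERO1A fell (-1.13 and -0.82), and GPX8 rose (1.03).

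Proteasome genes were called higher at 48 h in 29 of 32 cases and lower in 2, PSMA2 (-0.26) and PSMA4 (-0.23), with a median of 0.49. At 24 h the list leaned the other way, with 10 higher and 18 lower and a median of -0.16, and the effect was more positive at 48 h in 31 of the 32 genes. PSMD12, a subunit of the regulatory lid, was at 96.9, 95.2 and 107 CPM in control and at 205, 212 and 211 CPM in deprived cells. PSMC4, an ATPase of the base, was at 52.7, 59.2 and 57.4 CPM against 118, 131 and 132 CPM. PSMD2, also of the base, was at 268, 295 and 289 CPM against 379, 427 and 447 CPM at 48 h, and at 448, 441 and 464 CPM against 273, 275 and 289 CPM at 24 h. PSMD2 was thus called lower at 24 h (-0.69 ± 0.06) and higher at 48 h (0.56 ± 0.06). The control cells took part in this difference: from 24 h to 48 h, 29 of the 32 genes fell in control cells and none rose (all genes: 10.4% lower, 12.7% higher), while in deprived cells 23 rose and none fell (all genes: 20.7% higher, 21.8% lower). The summed level of the list was 4170 to 4345 CPM in control cells at 24 h, 3159 to 3447 CPM in control cells at 48 h, 3875 to 3983 CPM in deprived cells at 24 h and 4357 to 4849 CPM in deprived cells at 48 h. The ranges at 48 h do not overlap.

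Cytosolic heat shock proteins showed the same kind of turn, and the control cells again took part. From 24 h to 48 h, 10 genes of the list fell and none rose in control cells. In deprived cells 17 rose and 2 fell. Their summed level in control cells was 9966 to 10325 CPM at 24 h and 7932 to 8267 CPM at 48 h. In deprived cells it was 6859 to 7218 CPM and 10412 to 12253 CPM. Of 20 tested genes 14 were higher and 2 lower at 48 h (median 0.59), against 4 higher and 13 lower at 24 h (median -0.33), and 16 effects were more positive at 48 h and 1 was more negative. HSPA8, the constitutive HSP70 (chr11:123057489-123063230, minus strand), was at 989, 1044 and 1026 CPM in control and at 2443, 2872 and 3013 CPM in deprived cells. Its log2 fold change was 1.44 ± 0.07 (adjusted p = 5.2e-13), after -0.1 at 24 h (adjusted p = 0.191). DNAJB1, its cochaperone, was at 155, 175 and 164 CPM against 450.1, 552 and 597 CPM. DNAJA1, another cochaperone, was called lower at 24 h (-0.47) and higher at 48 h (0.56). HSP90AA1, an inducible HSP90, went from -0.92 at 24 h to 0.22 at 48 h, and HSP90AB1, its constitutive form, from -0.63 to -0.02 (adjusted p = 0.739 at 48 h). HSPA1B, the stress-induced HSP70, was at 238, 248 and 248 CPM in control and 491, 638 and 758 CPM in deprived cells, but shares nearly all of its sequence with HSPA1A, so the reads of both genes cannot be told apart. Of 16 mitochondrial chaperones and proteases 10 were higher and 2 lower. HSPA9, the mitochondrial HSP70, rose by 1.2, GRPEL2 by 1.15, DNAJA3 by 1.03 and LONP1 by 0.86. At 24 h the effects of these genes were 1.12, 0.88, 0.74 and 1.02.

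**Figure D3:**
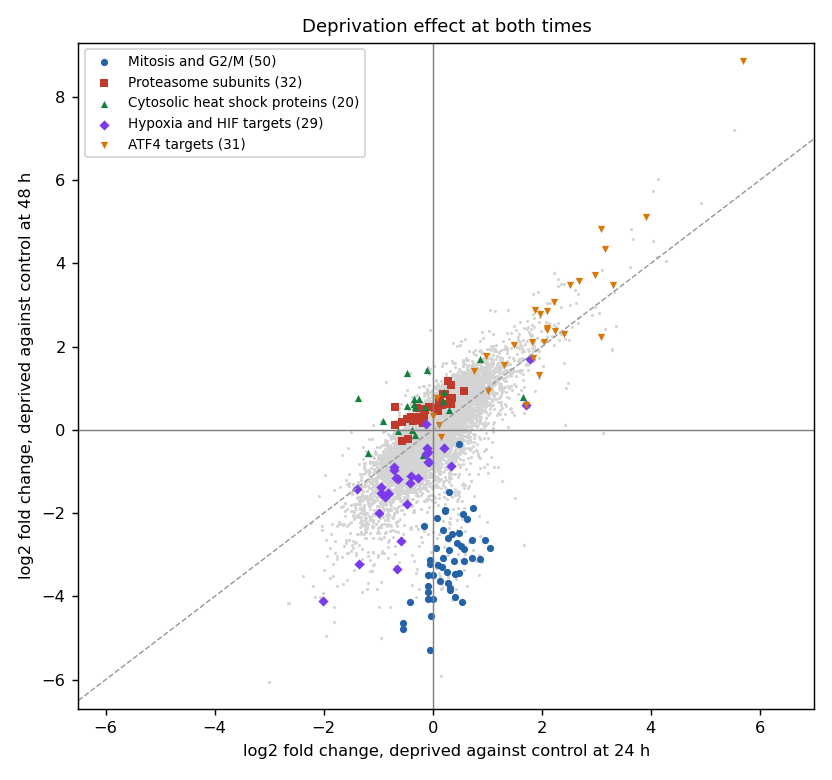
Log2 fold change at 24 h (x axis) against that at 48 h (y axis) for genes averaging 5 CPM or more (grey), with 5 lists coloured and the line of equal change dashed; the times share no samples. Most proteasome and heat shock genes lie above the line, and genes of mitosis lie far below it at a median of 0.28 at 24 h and -3.14 at 48 h.

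Autophagy and lysosome genes changed in both directions. Of 34 autophagy genes 17 were higher and 10 lower, among them MAP1LC3B, a marker protein of autophagosomes, which went from 105, 107 and 109 CPM to 309.7, 350.3 and 355 CPM. The receptor gene CALCOCO2 rose by 0.79 and TFE3, a transcription factor of lysosomal genes, by 1.42. Of 38 lysosomal genes 18 were higher and 13 lower at 48 h, against 7 higher and 20 lower at 24 h. CTSL, a cysteine protease, rose by 1.32, while NPC2, which moves cholesterol out of lysosomes, was at 113, 129 and 127 CPM in control and at 23.1, 25.7 and 25 CPM in deprived cells and CTSH fell (-2.1).

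Genes of cell division fell together at 48 h. Of 50 tested genes of mitosis and G2/M, all 50 were lower, with a median of -3.14; at 24 h 31 of them were higher and 3 lower, with a median of 0.28. The summed level of the list was 7344 to 7585 CPM in control cells and 1056 to 1104 CPM in deprived cells at 48 h, and 6336 to 6418 CPM and 7532 to 7783 CPM in the same groups at 24 h. KIF20A, a kinesin of cytokinesis (chr5:138178719-138187715, plus strand), was at 169, 185 and 164 CPM in control and at 4.05, 4.31 and 4.83 CPM in deprived cells. CCNB1, cyclin B1, was at 219, 239 and 233 CPM against 18.9, 21.7 and 22.1 CPM, and MKI67, the Ki-67 antigen, at 1005, 953 and 819.6 CPM against 65.7, 59.8 and 59.9 CPM. CDK1, the kinase of cyclin B, was at 114, 113 and 115 CPM against 17.2, 15.3 and 14.2 CPM. For CDC25C and CENPF the fall had begun at 24 h (-0.55 and -0.55) and reached -4.78 and -4.64.

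Promoters of 3 genes are shown because they hold both sites known from late cell cycle genes: the cell cycle homology region, searched as TTTGAA or TTCGAA, to which the DREAM complex binds, and CCAAT, the NF-Y site. Matches on either strand are in capitals. PIF1 lies at chr15:64825648-64825897, minus strand, CCNB2 at chr15:59104896-59105145, plus strand and CDC20 at chr1:43358731-43358980, plus strand (RefSeq, GRCh38.p14).
PIF1: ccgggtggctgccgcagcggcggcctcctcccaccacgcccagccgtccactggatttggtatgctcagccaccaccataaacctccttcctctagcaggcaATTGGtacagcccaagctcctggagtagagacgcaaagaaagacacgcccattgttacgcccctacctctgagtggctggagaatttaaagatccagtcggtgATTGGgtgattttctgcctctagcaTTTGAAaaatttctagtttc
CCNB2: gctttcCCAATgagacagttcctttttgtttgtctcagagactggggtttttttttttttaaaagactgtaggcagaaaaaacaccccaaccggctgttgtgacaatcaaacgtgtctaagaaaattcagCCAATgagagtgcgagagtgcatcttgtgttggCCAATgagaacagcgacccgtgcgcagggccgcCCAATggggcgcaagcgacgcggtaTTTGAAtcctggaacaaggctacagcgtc
CDC20: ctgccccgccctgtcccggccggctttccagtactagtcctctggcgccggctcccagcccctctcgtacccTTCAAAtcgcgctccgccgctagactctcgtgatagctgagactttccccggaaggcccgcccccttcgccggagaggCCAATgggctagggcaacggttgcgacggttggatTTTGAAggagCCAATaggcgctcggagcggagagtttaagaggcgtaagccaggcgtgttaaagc
The cell cycle homology region begins at -20 relative to the transcription start in PIF1, at -29 in CCNB2, and at -178 and -65 in CDC20. Of 43 promoters of the mitosis list, 31 (72.1%) held these letters and 35 (81.4%) held CCAAT, against 16.6% and 35.7% of all 27305 promoters. Both sites are known from such genes, so the shares are a description and no independent result. Members with the cell cycle homology region had a median of -3.11 (31 genes) and those without it one of -3.45 (12 genes). CCNB2, cyclin B2, was at 108, 114 and 109 CPM in control and 6.82, 6.82 and 6.97 CPM in deprived cells, and CDC20, an activator of the anaphase-promoting complex, at 255, 281 and 274 CPM against 29.98, 32.7 and 31.5 CPM.

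**Figure D4:**
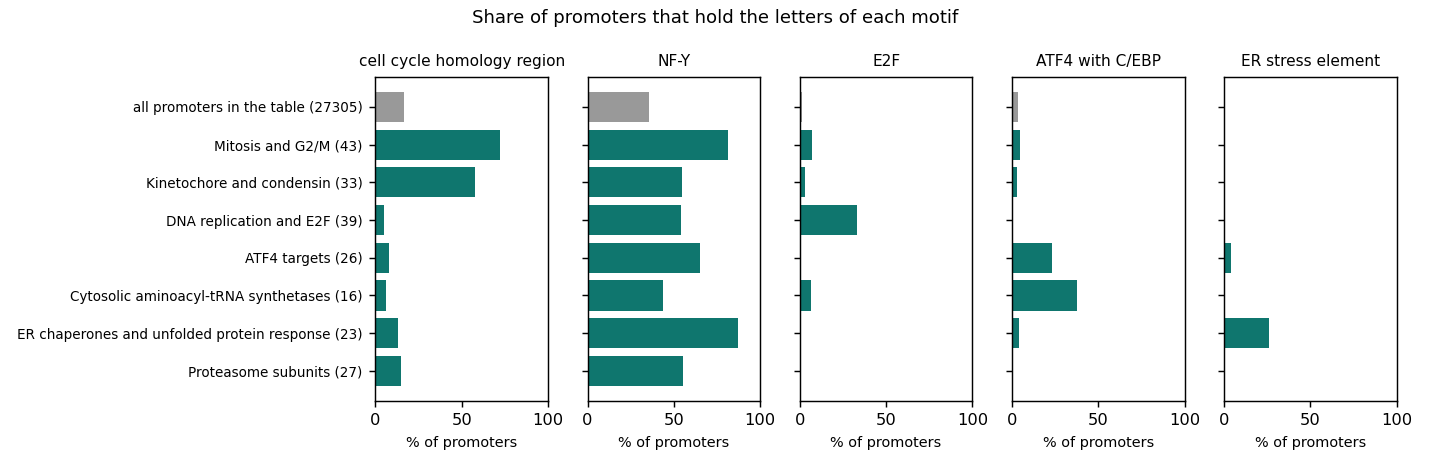
Share of promoters (x axis, percent) that hold the letters of 5 motifs on either strand, for all 27305 promoters in the table (grey) and for 7 gene lists (number of promoters in brackets). The cell cycle homology region is at 72.1% in genes of mitosis against 16.6% in all promoters, and the ER stress element at 26.1% in ER chaperone genes.

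Kinetochore and condensin genes, which attach and compact chromosomes, fell less uniformly: 34 of 39 were lower and 3 higher, with a median of -1.14, and at 24 h 18 had been higher and 7 lower. NCAPD2 of condensin I was at 442, 487 and 425 CPM in control and at 39.97, 43.3 and 42.2 CPM in deprived cells, and NCAPG at 113, 118 and 112 CPM against 13.6, 11.6 and 12.7 CPM. INCENP, of the chromosomal passenger complex, was at 146, 155 and 143 CPM against 31, 31.1 and 33.1 CPM. The genes that were higher, MIS12, ZW10 and PMF1, rose by 0.63, 0.61 and 0.53.

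Genes of the DNA replication and E2F list were divided, with 30 of 48 lower and 11 higher (median -0.42). The E2F site, searched as TTTCGCGC or TTTGGCGC on both strands, was in 13 of 39 of their promoters (33.3%) and in 322 of all 27305 (1.18%). The list was meant to take in E2F genes, so this share is a description and no independent result. TK1, thymidine kinase, was at 177, 196 and 199 CPM in control and at 31.6, 33 and 31.6 CPM in deprived cells and had fallen at 24 h (-0.89). DNA ligase I, LIG1, fell (-1.5). The helicase loader CDC6 and the G1 cyclin CCNE1 rose, by 0.99 and 0.95. Of 33 genes of homologous recombination and Fanconi repair 21 were lower and 7 higher at 48 h, against 3 lower and 16 higher at 24 h. Wider KEGG sets did not show this lean at 48 h. Homologous recombination had 19 of 44 higher and 17 lower (median 0.12), and the Fanconi anemia pathway 23 of 72 higher and 26 lower (median -0.12). FANCD2, at the centre of the Fanconi pathway, was at 52.3, 51.1 and 50.2 CPM in control and 19.5, 17.7 and 15.9 CPM in deprived cells; CHEK2, a checkpoint kinase, fell (-1.56). BRCA1 had a log2 fold change of -0.02 and did not pass the test. In mismatch and excision repair, 14 of 31 were higher and 11 lower, and NEIL3, a glycosylase, was at 18.1, 18.4 and 20.7 CPM against 3.7, 2.23 and 2.96 CPM. Of 47 replication-dependent histone genes 20 were tested, with 11 lower and 1 higher at 48 h and 1 lower and 10 higher at 24 h. H2AC20 had 36 counts in the 3 control samples together and 0 in the deprived ones, at least 11.8-fold lower against a floor of 3 counts over the group. Their transcripts lack poly(A) tails, and the copies share sequence.

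Cell cycle brakes and drivers of G1 gave mixed directions, 9 of 22 higher and 8 lower. CDKN1A, the CDK inhibitor p21, was at 133, 158 and 142 CPM in control and at 512, 599 and 626 CPM in deprived cells. CCND1, cyclin D1, also rose, from 330.0, 344 and 326 CPM to 929.8, 966 and 1025 CPM. CCNG2, an atypical cyclin under FOXO control, went from 93.6, 98 and 97.9 CPM to 21.6, 20.6 and 18.3 CPM, and CDKN1B, the inhibitor p27, was lower (-0.47). Targets of p53 were higher in 22 of 33 cases and lower in 10 (median 0.43). GDF15, a secreted stress hormone, was at 175, 225 and 207 CPM against 978, 1080.4 and 1079 CPM, while CCNG1, cyclin G1, was at 217, 203 and 234 CPM against 67.9, 63.2 and 65.5 CPM and DDB2, of nucleotide excision repair, fell (-1.47). The p53 list shares SESN2 and GDF15 with the list of ATF4 targets.

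Death receptor and caspase genes were 16 higher and 5 lower of 28 tested (median 0.38). TNFRSF10A and TNFRSF10B, the TRAIL receptors DR4 and DR5, were at 35.6, 36.9 and 32.3 CPM against 121, 131 and 136 CPM and at 181, 184 and 181 CPM against 460.1, 473 and 470.0 CPM. CASP4, an inflammatory caspase, rose by 1.62 ± 0.08, and CYCS, cytochrome c, by 1.22. The BCL2 family was 11 higher and 5 lower of 19. PMAIP1, the killer protein NOXA, was at 45.7, 50.2 and 49.8 CPM in control and at 214, 211 and 211 CPM in deprived cells. BCL2L1, the survival protein BCL-XL, was at 186, 211 and 194 CPM against 365, 402 and 414 CPM, while the killer BMF was at 9.97, 11.2 and 11.7 CPM against 1.28, 1.3 and 1.32 CPM. Killer members thus changed in both directions.

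Genes of hypoxia and glycolysis were lower in deprived cells, in a comparison to which the control cells contributed. Of 29 tested targets of HIF, the hypoxia-inducible factor, 25 were lower and 2 higher (median -1.16), against 16 lower and 2 higher at 24 h. Their summed level was 3567 to 4728 CPM in control cells at 24 h and 7290 to 8009 CPM in control cells at 48 h, but 3438 to 3645 CPM and 3974 to 4345 CPM in deprived cells. From 24 h to 48 h, 27 members rose and none fell in control cells (median 0.70), and 10 rose and 4 fell in deprived cells (median 0.19). PPFIA4 was at 28, 24.5 and 25 CPM in control and at 1.32, 1.35 and 1.82 CPM in deprived cells at 48 h. CA9, the carbonic anhydrase used as a hypoxia marker, was at 4.6, 6.72 and 7.66 CPM against 1.23, 0.789 and 0.956 CPM, and KDM3A, a histone demethylase, at 208, 215 and 209 CPM against 65.9, 71.9 and 67.1 CPM. VEGFA, the angiogenic growth factor, went against the list, with 119, 131 and 114 CPM in control and 417, 381 and 393 CPM in deprived cells, and the other called rise was DDIT4, at 0.59. HIF1A RNA was higher by 0.83 ± 0.05.

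Of 23 glycolysis genes 19 were lower and 2 higher (median -0.91). The wider KEGG set of glycolysis and gluconeogenesis had 27 of 51 lower and 9 higher (median -0.32). In control cells 17 of the 23 rose and 1 fell from 24 h to 48 h. In deprived cells 7 rose and 5 fell. The list overlaps that of HIF targets, for example in ALDOC. ALDOC, an aldolase (chr17:28573115-28577264, minus strand), was at 288, 322 and 309 CPM in control and at 27.6, 35.8 and 35.1 CPM in deprived cells. PGK1, phosphoglycerate kinase, was at 1104, 1209.9 and 1193 CPM against 381, 424 and 421 CPM, and LDHA, lactate dehydrogenase A, at 1928, 1991 and 1979 CPM against 628, 711 and 733 CPM. The genes called higher were hexokinases: HKDC1 rose from 0.469, 1.1 and 1.56 CPM to 17.8, 16.3 and 17.4 CPM and HK2 by 0.4 ± 0.09. Sterol genes were lower in 23 of 25 cases at 48 h (median -0.86) and in 24 at 24 h (median -1.01). SQLE, squalene epoxidase, was at 128, 134 and 130.2 CPM in control and 45.6, 51.2 and 51.5 CPM in deprived cells. Among the genes called higher at 48 h was PMVK, a kinase of the mevalonate pathway, at 0.56. Nuclear genes of oxidative phosphorylation were lower in 31 of 57 cases and higher in 10 (median -0.18); COX6C fell (-1.03), and ATP5MC1 rose by 0.98.

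**Figure D5:**
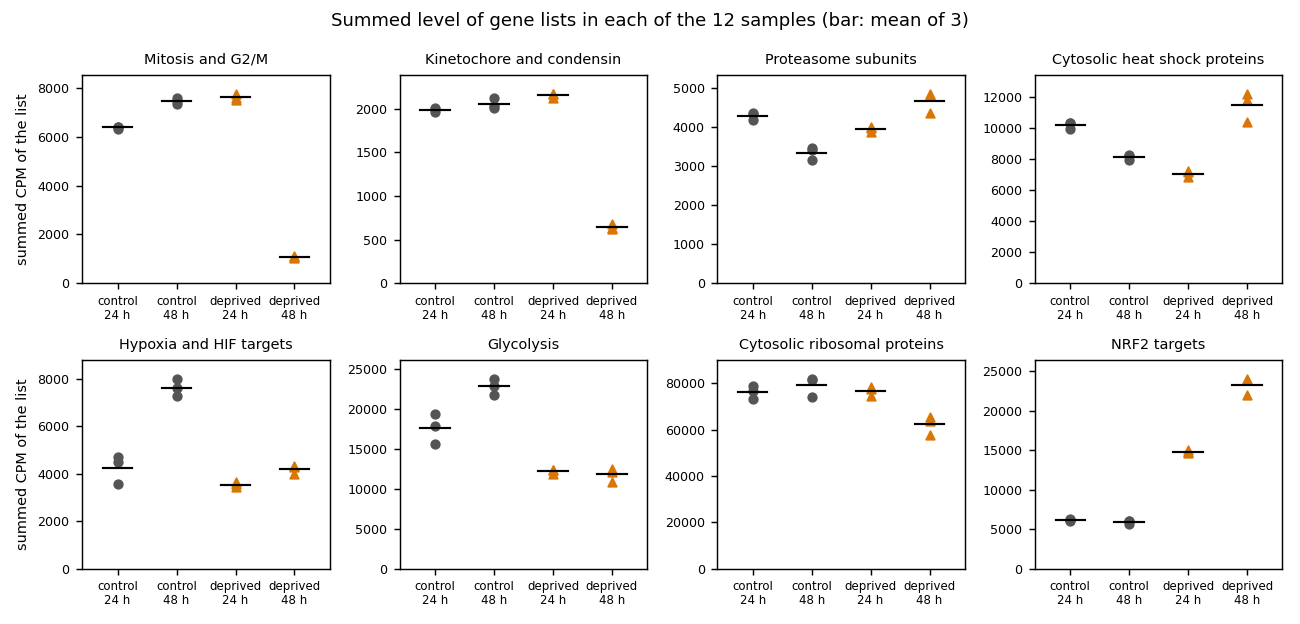
Summed CPM of 8 gene lists in each of the 12 samples (y axis, starting at 0), with control cells as circles and deprived cells as triangles at 24 h and 48 h and the mean of 3 samples as a bar. Genes of mitosis fall to 1056 to 1104 CPM in deprived cells at 48 h, whereas the hypoxia list rises in control cells between the times.

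Translation genes divided by function. Cytosolic ribosomal protein genes were lower in 64 of 78 cases, mitochondrial ribosomal protein genes higher in 24 of 40 and lower in 7 (medians -0.37 and 0.30). MRPL24 of the mitochondrial large subunit was at 32.1, 32.1 and 30.6 CPM in control and at 92, 107 and 107 CPM in deprived cells, and RPS9 of the cytosolic small subunit at 802, 915 and 901 CPM against 351, 397 and 396 CPM. EIF4EBP1, the repressor of cap-dependent translation, rose from 35.7, 42 and 41.3 CPM to 143, 158 and 166 CPM, and EIF6, which holds ribosomal subunits apart, by 1.49. Ribosome biogenesis genes were higher in 33 of 40 cases and lower in 2, with the helicase gene DDX21 at 204, 196 and 186 CPM against 598, 569.8 and 559 CPM. GAS5, a noncoding host gene of small nucleolar RNAs whose RNA is degraded when it is translated, was at 178, 177 and 182 CPM against 639, 697 and 655 CPM, and 12 of 21 such host genes were higher and 6 lower.

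Developmental signalling genes were mostly lower. Of 16 tested Wnt and beta-catenin targets 13 were lower and 2 higher, MYC and CCND1. Their median was -1.65, or -1.03 over the 14 members averaging 5 CPM or more, and at 24 h 13 were lower and 2 higher (median -0.75). DKK1, a secreted Wnt inhibitor, was at 144, 178 and 163 CPM in control and 27.4, 31.6 and 35.4 CPM in deprived cells, NKD1, an inhibitor inside the cell, at 37.4, 37.4 and 32.6 CPM against 7.26, 9.23 and 8.2 CPM. AXIN2, a feedback target of the pathway, was lower at 48 h (-2.24) as at 24 h (-2.23). The stem cell marker genes LGR5 and ASCL2 had too few counts to be tested. Among 16 BMP and TGF-beta targets 11 were lower and 3 higher. ID2, an inhibitor of helix-loop-helix factors, was at 107, 107 and 113 CPM against 13.4, 13.3 and 13.7 CPM, and ID1 at 399.9, 448 and 434 CPM against 102, 110.3 and 101 CPM. SOX4, a transcription factor of progenitor cells, was at 422, 413 and 403 CPM against 59.2, 57.7 and 55.6 CPM, while KLF5, of crypt epithelium, rose by 1.42.

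YPEL and FOXO target genes were lower in 15 of 20 cases and higher in 1, FOXO3 at 0.97. YPEL1 fell (-4.62) and BCL6, a transcriptional repressor, was at 52.5, 58.8 and 51.8 CPM in control and 12.6, 14 and 15.3 CPM in deprived cells. Immediate early genes were 17 higher and 9 lower of 30. JUN was at 26.9, 32.6 and 29.9 CPM against 227, 244 and 263 CPM, and FOSL1, its partner FRA1, at 47.2, 55.9 and 47.6 CPM against 268, 299.6 and 327 CPM. FOS went the other way, at 37.1, 54 and 47.2 CPM in control and 7.13, 6.36 and 6.38 CPM in deprived cells, as did EGR1 (-1.03 ± 0.08, after 0.29 at 24 h). Control cells rose for the median gene of this list by 0.76 from 24 h to 48 h, and deprived cells by 0.50. HBEGF, a ligand of the EGF receptor, was at 5.75, 6.81 and 6.01 CPM against 34.1, 37.7 and 41.1 CPM. MYC was higher by only 0.25 ± 0.06, and its antagonists MXD3 and MXD4 fell (-1.66 and -1.3) while MXD1 rose by 1.58.

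Genes by which cells meet the immune system were mostly lower, while the chemokine gene CXCL8 rose. Of 19 genes of MHC class I and peptide loading 11 were lower and 5 higher (median -0.98). B2M, the light chain of class I, was at 431, 467 and 453 CPM in control and at 169.6, 189 and 171 CPM in deprived cells, and HLA-E at 257, 291 and 277 CPM against 79.6, 88.1 and 80.1 CPM. PSMB9, an immunoproteasome subunit, was at 6.99, 11 and 8.67 CPM against 1.06, 1.25 and 1.41 CPM. Interferon-stimulated genes were lower in 19 of 28 cases and higher in 5 (median -0.93): IFI6 was at 15.6, 21 and 19.2 CPM against 2.55, 1.67 and 1.18 CPM. Of 20 tested NF-kappaB and cytokine genes 12 were higher and 2 lower, NFKB2 (-0.18) and IL18 (-0.66). CXCL8, the chemokine interleukin 8, was at 0.937, 1.55 and 0.918 CPM in control and 15.6, 16.5 and 15 CPM in deprived cells. IL20RB, a receptor subunit for interleukin 20, was at 0.682, 1.14 and 0.505 CPM against 15.5, 19.7 and 19 CPM, and LIF, a cytokine, rose by 0.88.

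Epithelial attachment genes changed strongly in both directions. LAMB3, a chain of the laminin that anchors epithelia, was at 86.8, 103 and 92.2 CPM in control and at 1001, 1182 and 1306 CPM in deprived cells. LAMB1, a chain of other laminins, was at 143, 142 and 134 CPM in control and 51, 49.3 and 46.2 CPM in deprived cells, and ITGB8, an integrin subunit, fell (-3.52). The list of laminin and integrin genes as a whole was 10 higher and 10 lower of 22. Of 20 tested keratin symbols, 12 were higher and 4 lower (median 0.78). KRT7 and KRT80 rose by 3.31 and 3.83, KRT23 and the tight junction gene TJP3 fell (-1.59 and -1.37). PLAU, urokinase, was at 37.5, 48 and 40.9 CPM against 245, 253 and 259 CPM, and LOXL2, a matrix cross-linking enzyme, at 115, 130.4 and 119 CPM against 25.9, 32.6 and 30.3 CPM. Among 38 actin cytoskeleton genes 18 were higher and 16 lower. FLNC, a filamin that cross-links actin, was higher by 2.89, and the formin gene DIAPH3 was lower (-1.88). FLNC was at 116, 132 and 105 CPM in control and at 769.7, 876 and 957 CPM in deprived cells. Tubulins were 8 lower and 2 higher of 16, with TUBB4B at 542, 626 and 589 CPM against 234, 264 and 276 CPM.

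In CPM, which grow with transcript length as well as with RNA number, the largest gains after FTH1 were in PLEC, a linker of intermediate filaments, and FTL. PLEC was at 1087, 1145 and 1010.2 CPM in control and at 3961, 4012 and 4399.8 CPM in deprived cells. Further large gains were in HSPA5, SLC7A5, HSPA8, SQSTM1, TXNRD1, HMGA1, a chromatin protein, and EZR, which ties membranes to actin. Among nuclear genes with a standard symbol, the largest loss was that of PTMA, prothymosin alpha, at 2627, 2853 and 2803 CPM against 689, 746 and 731 CPM. KITLG, the ligand of the receptor KIT, was at 1939, 1676 and 1789.7 CPM against 156, 133 and 126 CPM, and ITPRID2 at 2073, 2013 and 1968 CPM against 450.1, 416 and 406 CPM. ENO1, GAPDH, PKM, ALDOA and LDHA of glycolysis, EEF2, an elongation factor, and FAT1, a protocadherin, complete the 10 largest losses. Of the mitochondrially encoded genes 10 of 13 were lower and 1 higher; MT-CYB was at 5091, 4963 and 4986 CPM against 2676, 3045 and 3026 CPM.

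Directions opposite at the 2 times, with the difference itself called, were found for 353 genes (2.08%) that were higher at 24 h and lower at 48 h, and for 169 genes (0.994%) with the reverse order. Among the first were the kinetochore genes SKA1 and NDC80, the centromere gene HJURP and the ubiquitin-conjugating enzyme of anaphase, UBE2C. UBE2C was at 68.4, 70.7 and 80.8 CPM in control and 149, 150.0 and 154 CPM in deprived cells at 24 h, and at 102, 116 and 114 CPM against 14.7, 14.1 and 17.7 CPM at 48 h. The linker histone H1-2 was at 9.6, 8.83 and 7.54 CPM against 25.1, 25.1 and 23.4 CPM at 24 h and at 10.4, 12.4 and 11.5 CPM against 3.87, 3.06 and 4.14 CPM at 48 h. DHRS2, a mitochondrial reductase, went from 1.67 to -2.77. In the reverse order LPIN1, a phosphatidate phosphatase, was at 44.5, 39.8 and 46.9 CPM against 28.2, 27 and 32.6 CPM at 24 h and at 31.7, 32.7 and 29.3 CPM against 48.8, 49.3 and 46.4 CPM at 48 h, and PSMD2, DNAJA1 and HSPA1B moved likewise. No group of 3 samples of these genes overlapped the other treatment at 48 h. The genes were picked for a called change at both times, which makes overlap unlikely.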

How the data were processed

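RNA-seq libraries of HCT116 cells were compared at 48 h, with 3 control and 3 cystine-deprived samples; the 6 samples at 24 h entered the same fit. Groups and replicate numbers come from the sample titles. The table deposited by the authors holds estimated counts per gene and sample, not normalized; per the submitters' processing notes, the tools were fastp, HISAT and RSEM (no versions stated) and the build was GRCh38. No label or header states the annotation release or the strandedness. Reads of genes that overlap, antisense ones included, therefore cannot be assigned with certainty, nor can those of near-identical copies. The 316 rows without a gene name held 1.06% to 1.36% of counts in control and 0.748% to 0.780% in deprived cells at 48 h and were left out.

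Counts were rounded and filtered with filterByExpr (minimum count 10, minimum total 15). One fit of 4 group means over the 12 samples used edgeR 4.0.16 in R 4.3.3 (TMM, glmQLFit, glmQLFTest, Benjamini-Hochberg adjustment over all 16994 genes, threshold 0.05); adjusted p-values in the text are from this test. The SE is the log2 fold change divided by the root of F. CPM use TMM-scaled totals. The biological coefficient of variation was 6.40%. The test was also run on simulated counts in which only a small part of the genes changed. In the data most genes were called, so that run cannot check the scaling or the calls made here. Alternatives were DESeq2 1.42.0, 3 other scalings, 2 other filters, the 48 h samples alone, a replicate block and leaving out each sample. Replicates of a group differed by more than sampling noise (chi-square per degree of freedom 3.00 to 8.12 at 48 h).

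The 70 gene lists and the rule for named genes were chosen with earlier results of these data known. The rule names the 12 largest rises and falls (average of 5 CPM or more, groups that do not overlap), the 10 largest gains and losses in CPM, the 4 members of each list with the smallest adjusted p, a set around cystine and ferroptosis, the 8 largest differences between times in each direction and the 8 clearest genes with opposite directions in each order. Genes named outside the rule were chosen after their values were seen: PSMA2, PSMA4, PSMB9, HSP90AA1, HSP90AB1, DDIT4, HK2, PMVK, FOS, EGR1, AXIN2, LGR5, ASCL2, BRCA1, MIS12, ZW10, PMF1, CDC6, CDC20, CCNE1, CDKN1B, MGST1, FOXO3, NFKB2, IL18, VIL1, the markers of other cell types and the genes under other observations. Gene positions are from GENCODE v29 (GRCh38), and promoters from a RefSeq table matched by symbol. Cysteine content of the encoded proteins was not analysed here. Some genes are not reported here.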

Additional observations from a re-analysis of the deposited data

Results flagged for a closer look

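The deprivation effect differed between 48 h and 24 h for 6048 genes by the test of that difference, which is what marks the genes below. No explanation for the differences was tested. NUPR1 had the most positive difference, 3.16 on the log2 scale, but its control samples at 48 h held 2 counts in all against 1088 in deprived cells, a ratio of 554 with an exact interval (95%, counting error only) of 153 to 4581. UTP14C (2.45), CXCL8 (2.13), HSPB8 (2.13), LCN2 (1.89), FLNC (1.84), HSPA1B (1.84) and TRIML2 (1.79) followed. UTP14C was at 11.3, 8.49 and 6.28 CPM in the 3 deprived samples and at 1.53, 1.87 and 1.51 CPM in the control samples.

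The most negative differences were those of PIF1 (-6.06), KIF20A (-5.25), CENPA (-4.73), HMMR (-4.66), PIMREG (-4.44), DHRS2 (-4.43), DLGAP5 (-4.43) and CCNB2 (-4.41). Of these, CENPA, HMMR, PIMREG, DHRS2 and CCNB2 had been called higher at 24 h.

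Among genes called in opposite directions, those higher at 24 h and lower at 48 h had differences of -3.13 in H1-2, -2.50 in SKA1, -3.88 in UBE2C, -2.05 in MSH5, -3.21 in NDC80, -3.61 in CKAP2L and -4.08 in HJURP. Those with the reverse order had differences of 2.02 in AC139530.2, 1.2 in LPIN1, 1.25 in PSMD2, 1.15 in HCN4, 1.07 in AC022826.2, 1.03 in CLCN4 and 1.03 in DNAJA1. HCN4 was called higher at 48 h at 0.53, and without deprived replicate 1 at 48 h the call was lost at 0.42.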

How the results depend on the processing

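Of the 321 genes that the rule named, none that was called at 48 h changed direction under any alternative run. Changes of sign in uncalled genes were not counted, and genes named outside the rule were not part of this check. Limiting the test to genes averaging 5 CPM or more left 793 genes at least 2-fold higher and 1322 at least 2-fold lower. The main fit, which also took in genes under that average, gave 1459 and 2594. Genes under that average thus held many of the large changes. Leaving out 1 sample at a time gave 11113 to 11691 genes changed, 5469 to 5740 higher, 5631 to 5958 lower, 1449 to 1507 at least 2-fold higher and 2510 to 2671 at least 2-fold lower. The differences between times numbered 5352 to 6032, with 2420 to 2814 more positive and 2895 to 3218 more negative. The samples at 48 h alone give no such difference. The direction of the majority depended on the setting: 4639 higher and 4570 lower at an average of 5 CPM or more, 5632 and 5542 with the samples at 48 h alone, and 5203 and 6379 with upper-quartile scaling. Deviations of same-numbered samples at 48 h correlated at 0.13, 0.05 and -0.01 for replicates 1, 2 and 3. Those of differently numbered samples correlated at -0.12 to 0.07. The value of replicate 1 was the highest, and these few values do not settle whether the numbers pair the samples. The replicate block gave 11734 changed genes and 6329 differences.

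Medians of lists near 0, such as glutathione, keratins with epithelial junctions, actin and the disulfide isomerases, changed sign under some settings. Depth limits genes of few counts, among them NUPR1, PSMB9 and the histones.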

Other observations

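The families below were picked from a scan of 153 shared symbol starts after values were seen, and carry no test. TIMM genes of mitochondrial protein import were higher in all 15 cases tested, with a median of 0.88, leaving out TIMMDC1 and a readthrough locus. TIMM44, a tether of the import motor, was at 35, 38.7 and 39.1 CPM in control and at 107, 118 and 124 CPM in deprived cells; TIMM17A of the inner membrane channel was at 48.3, 48.2 and 50.6 CPM against 97.5, 103 and 95.1 CPM. TIMM23 and TIMM23B share sequence and are uncertain.

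HLA genes of class I and II, without pseudogenes and antisense RNAs, were lower in all 16 cases tested (median -2.56). HLA-DRA, the alpha chain of HLA-DR, was at 6.56, 7.31 and 7.34 CPM in control and at 0.616, 0.51 and 0.273 CPM in deprived cells (-3.9 ± 0.29). HLA-DRB1 was at 5.71, 6.9 and 5.78 CPM against 0.968, 0.974 and 1.09 CPM. These levels are low, and HLA genes share reads. Semaphorin genes, which encode guidance cues, were lower in 13 of 16 cases and higher in 2, antisense RNAs left out. SEMA3F was at 25.3, 34.4 and 27.8 CPM in control and at 4.71, 5.06 and 4.64 CPM in deprived cells, and SEMA7A at 16.7, 19 and 17.3 CPM against 42.4, 49.3 and 45.5 CPM.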
